A study of Mus musculus with 6 samples.

Results

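The lysyl oxidase family comprises the genes Lox, Loxl1, Loxl2, Loxl3 and Loxl4, and all 5 were found by symbol among the 22966 genes of the count table. The family was followed across RNA sequencing libraries of primary hepatic stellate cells from mice, 3 titled Cre and 3 titled flox. Every library carried the same genotype entry (BucheHep), a housing note naming BucheΔHep mice and an entry for CCl4 treatment (carbon tetrachloride, a liver toxin used to induce fibrosis), so only the titles set the Cre group apart from the flox group. The series concerns loss of butyrylcholinesterase in hepatocytes and its effect on stellate cell activation. Every title also began with the tag S2W, which was not interpreted here. The sources used here do not give the promoter of the Cre, the age of the mice, the CCl4 schedule or whether libraries came from separate animals. The p-values thus measure the spread between these libraries, which may be technical.

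Lysyl oxidases are secreted, copper-dependent amine oxidases that convert lysines and hydroxylysines of collagen and elastin into reactive aldehydes, which then form the covalent cross-links of the matrix. Lox and Loxl1 form a closely related pair with a propeptide in front of the catalytic domain, while Loxl2, Loxl3 and Loxl4 carry scavenger receptor domains there. In fibrotic liver, cross-linking makes the scar stiffer and harder to degrade, and activated stellate cells are a known source of these enzymes.

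The catalytic domain carries a histidine-rich stretch that binds copper. Its coding bases are shown because they let a reader see how close the family members are, which bears on how well reads can be assigned to each of them. The letters below are GENCODE M21 transcript bases, 5′ to 3′, and capitals mark bases that differ from Loxl2.
Loxl1: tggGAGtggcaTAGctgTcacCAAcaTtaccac
Loxl2: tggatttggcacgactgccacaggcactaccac
Loxl3: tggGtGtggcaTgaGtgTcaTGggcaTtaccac
Loxl4: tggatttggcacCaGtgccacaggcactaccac

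In each of the 5 genes an intron interrupts this stretch of 33 bases after base 23. In GRCm38 the stretch of Loxl1 lies at chr9:58294359-58294381 and chr9:58293720-58293729 (minus strand, from exon 3 of 7), and that of Loxl2 at chr14:69682316-69682338 and chr14:69689028-69689037 (plus strand, from exon 10 of 14). That of Loxl3 lies at chr6:83049995-83050017 and chr6:83050116-83050125 (plus strand, from exon 10 of 14), and that of Loxl4 at chr19:42599877-42599899 and chr19:42598807-42598816 (minus strand, from exon 11 of 15). Loxl4 differed from Loxl2 at 2 bases, Loxl3 at 8 and Loxl1 at 11. Lox, on chromosome 18 (52516067 to 52529867, minus strand), matched Loxl1 at 97.0% of the stretch and Loxl2 at 69.7%. Over whole transcripts, the longest identical run between 2 family members was 32 bases, between Lox and Loxl1, and the other 9 pairs shared at most 28. The sources used here do not give read length or the treatment of reads with several matches.

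The libraries held 37273142 to 39377787 counts in the Cre group and 38452088 to 41006722 in the flox group. With edgeR, 14795 genes were tested, and 940 rose and 1323 fell in Cre relative to flox libraries (adjusted p below 0.05), a split that became 1415 higher and 1066 lower with library totals in place of TMM factors. Library totals moved the median log2 fold change of all genes by 0.16. In edgeR, leaving out Cre 1, Cre 2, flox 1 or flox 2 left 0 genes past the threshold, with 3562 to 3978 at an unadjusted p below 0.05. Fits that omit a library were made with edgeR alone. Bche, the gene of butyrylcholinesterase, had 15, 8 and 2 counts in Cre 1, 2 and 3 and 17, 6 and 21 counts in flox 1, 2 and 3, which says nothing of a deletion in hepatocytes.

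Markers of other cell types were detected in both groups. Of 16 macrophage markers 14 fell and 0 rose, and their summed level ran from 2559 to 3185 CPM (counts scaled to library size) in Cre and from 8260 to 22996 CPM in flox. On the log2 CPM scale these markers averaged 6.45, 5.87 and 6.34 in Cre 1, 2 and 3 against 9.20, 9.66 and 8.06 in flox 1, 2 and 3, which placed flox 3 closest to the Cre group. Among them Marco, a scavenger receptor (-3.27 ± 0.34 on the log2 scale, Cre over flox), Cd5l (-3.65 ± 0.41) and Timd4 (-4.32 ± 0.57), both made by resident liver macrophages, had the lowest p. The 11 tested stellate lineage markers summed to 275 to 581 CPM in Cre and 235 to 378 CPM in flox, with 1 higher (Hand2) and 0 lower, and endothelial markers to 2007 to 3252 CPM in Cre and 1322 to 3937 CPM in flox, with 1 of 10 lower (Clec4g). The lists hold different genes, so these sums are not shares of cells. Of the defining stellate markers, Gfap had 0 to 4 counts in a library and was not tested, while Lrat, the retinol-esterifying enzyme, had 41, 7 and 31 counts in Cre 1, 2 and 3 and 95, 84 and 5 counts in flox 1, 2 and 3, with overlapping groups (edgeR adjusted p = 0.399). Of the 11 tested stellate markers 6 had a positive fold change. The 10 mesothelial markers had 0 past the edgeR test and averaged 5.79, 6.13 and 4.06 log2 CPM in Cre 1, 2 and 3 against 4.56, 3.97 and 4.38 in flox 1, 2 and 3. All 10 log2 fold changes were positive, with a median of 1.41, and 6 of the 10 rose with DESeq2. Summed portal fibroblast markers reached 643 to 1133 CPM in Cre and 357 to 488 CPM in flox, with 2 of 9 higher (Fbln2 and Slit2). Fbln2 alone gave 497 to 851 CPM of that sum in Cre and 231 to 360 CPM in flox. The mean of the list overlapped, at 3.56, 3.23 and 3.33 log2 CPM in Cre 1, 2 and 3 and 3.34, 3.07 and 2.30 in flox 1, 2 and 3, and 5 of the 9 fold changes were positive. Vascular smooth muscle markers reached 125 to 327 CPM in Cre and 89.4 to 154 CPM in flox, with 0 of 7 past the test. All 7 log2 fold changes were positive, with a median of 0.78. Hepatocyte markers reached 63.9 to 378 CPM in Cre and 176 to 661 CPM in flox, with 0 of 9 past the test. Of the 9 log2 fold changes 2 were positive, with a median of -1.17, and 2 of the 9 fell with DESeq2. No marker in these lists was at 0 in all 6 libraries.

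Lox and Loxl1 were higher in the Cre libraries, while Loxl2, Loxl3 and Loxl4 did not pass the test. All 5 genes passed the filter on low counts. Of them 2 rose and 0 fell, where 6.35% of all tested genes rose and 8.94% fell. The median log2 fold change of the 5 was 0.90, against 0.01 over all tested genes. In 2 of the 5 the groups did not overlap, with Cre on top in both, where 19.6% of all tested genes had all Cre libraries above all flox libraries and 39.6% were separated in either direction. In whole-population RNA, fewer cells of a type and less RNA per cell cannot be told apart.

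**Figure D1:**
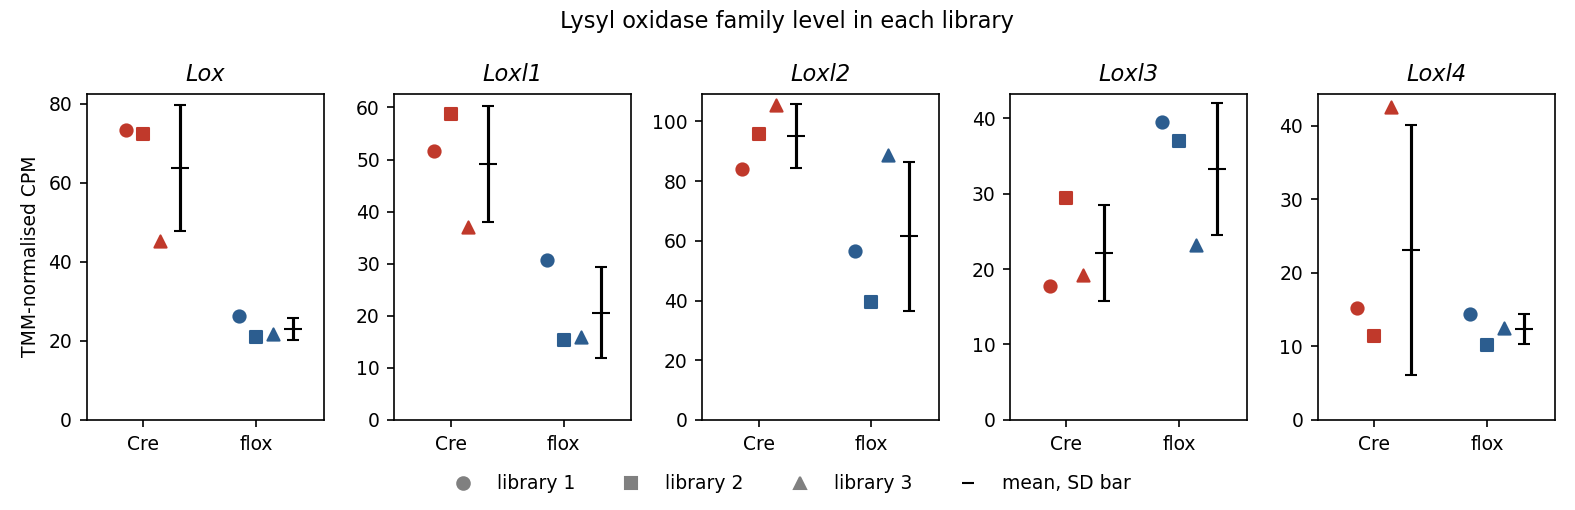
TMM-normalised CPM (vertical axes, each from 0) of the 5 lysyl oxidase genes in the 3 Cre (red) and 3 flox (blue) libraries, with the mean and SD of each group beside the points. The groups are separate for Lox and Loxl1, flox 3 reaches the Cre level for Loxl2, and Cre 3 alone is high for Loxl4.

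Lox encodes the founding enzyme, which cross-links fibrillar collagen and elastin. It had 73.3, 72.5 and 45.2 CPM in Cre 1, 2 and 3 and 26.2, 21.1 and 21.6 CPM in flox 1, 2 and 3. Every Cre library lay above every flox library, with Cre 3 the lowest of the Cre group and the flox libraries close together. Set over flox, this was a 2.77-fold difference, or 1.47 ± 0.21 on the log2 scale (SE, 3 libraries each, edgeR adjusted p = 0.0237), and 4.41% of tested genes had a larger positive log2 fold change. Leaving out 1 library gave log2 fold changes between 1.38 (Cre 1 omitted) and 1.69 (Cre 3 omitted), with unadjusted edgeR p of 2.67e-05 to 0.00138. The call ended without Cre 1, Cre 2, flox 1 or flox 2, where no gene at all passed. Mesothelial markers were likewise highest in Cre 1 and 2, at means of 5.79 and 6.13 log2 CPM, and the part of these markers in the Lox difference was not tested. In the annotation, 30 exon bases of Lox are shared with an uncharacterised gene on the opposite strand.

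Loxl1 (chromosome 9, 58287738 to 58313186) is an enzyme chiefly tied to elastic fibre upkeep. It had 51.7, 58.8 and 37.01 CPM in Cre 1, 2 and 3 and 30.7, 15.3 and 15.9 CPM in flox 1, 2 and 3. The groups did not overlap, but flox 1 lay near Cre 3 and stood apart from the other flox libraries. The log2 fold change was 1.25 ± 0.32 (edgeR adjusted p = 0.0451), a 2.38-fold difference. Left-out libraries moved it from 1.10 without flox 3 to 1.67 without flox 1, and the call ended each time, at edgeR adjusted p of 0.0502 to 0.143. Unadjusted edgeR p ran from 0.000469 (flox 1 omitted) to 0.0181 (Cre 2 omitted). Without Cre 1, Cre 2, flox 1 or flox 2 no gene at all passed. The means of 49.2 ± 11.1 CPM in Cre and 20.6 ± 8.72 CPM in flox (SD, n = 3 each) thus differed by more than the spread within groups, though the call rested on having all 6 libraries. Mesothelial markers averaged 5.79, 6.13 and 4.06 log2 CPM in Cre 1, 2 and 3 and 4.56, 3.97 and 4.38 in flox 1, 2 and 3. Within each group this was the order of Loxl1, though Cre 3 lay below flox 1 and 3 for these markers. The part of these markers in the Loxl1 difference was not tested.

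Loxl2 (chromosome 14, 69609068 to 69695834) acts on collagen, including the collagen IV of basement membranes. It had 84.2, 95.6 and 105.6 CPM in Cre 1, 2 and 3 and 56.5, 39.4 and 88.7 CPM in flox 1, 2 and 3. The Cre libraries were close together, and flox 3 lay among them while flox 1 and 2 lay below. At 0.63 ± 0.28 on the log2 scale, the difference missed the threshold (edgeR adjusted p = 0.170). Without flox 3 it was 0.99 and passed (edgeR adjusted p = 0.0106), and without flox 2 it was 0.40. Endothelial markers averaged 5.56, 6.49 and 5.53 log2 CPM in Cre 1, 2 and 3 and 6.11, 5.94 and 6.596 in flox 1, 2 and 3. The flox libraries thus had the same order for these markers as for Loxl2, with flox 3 highest, while the Cre libraries did not. Flox 3 also had the lowest macrophage marker mean of the flox group, 8.06 log2 CPM, and the part of either list in the Loxl2 levels was not tested. Of the annotated Loxl2 exon bases, 5.57% are shared with a predicted gene on the opposite strand. That gene had 1 to 14 counts in a library and was not tested. A further 7 bases are shared with the microRNA gene Mir6950.

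Loxl3 (chromosome 6, 83034173 to 83052562), known for collagen assembly in skeleton and palate development of mice, was the only one of the 5 with a negative fold change. It had 17.8, 29.3 and 19.2 CPM in Cre 1, 2 and 3 and 39.5, 36.9 and 23.2 CPM in flox 1, 2 and 3. Flox 3 lay below Cre 2, so the groups overlapped, and flox 1 and 2 were above every Cre library. At -0.59 ± 0.27 on the log2 scale, it missed the threshold with all libraries (edgeR adjusted p = 0.179), but was -0.79 without flox 3 (edgeR adjusted p = 0.0421). In flox 1 and 2, the libraries with the highest Loxl3, macrophage markers were highest too, while Cre 2, with the lowest macrophage mean, had the highest Loxl3 of the Cre group. The stellate lineage mean was 3.92, 3.47 and 2.87 log2 CPM in flox 1, 2 and 3, the order of Loxl3 there. In Cre 1, 2 and 3 it was 3.29, 3.11 and 4.34, not the order of Loxl3. Portal fibroblast and smooth muscle means also had the Loxl3 order in flox but not in Cre libraries. The mean of Col1a1, Col1a2 and Col3a1 had the Loxl3 order within both groups. The part of any of these lists in the Loxl3 difference was not tested. Of the annotated Loxl3 exon bases, 11.6% are shared with Htra2 on the opposite strand, which had 1980 to 2251 counts in Cre and 2310 to 2625 in flox (log2 fold change -0.34 ± 0.12, edgeR adjusted p = 0.0921), and reads of the genes cannot be told apart there without strand.

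Loxl4 (chromosome 19, 42593982 to 42612813), the family member with the lowest average level per length in both groups, turned on a single library. It had 15.3, 11.4 and 42.6 CPM in Cre 1, 2 and 3 and 14.4, 10.3 and 12.5 CPM in flox 1, 2 and 3. Cre 3 stood far above the other 5 libraries, which lay within a narrow range with the groups interleaved. The log2 fold change was 0.90 ± 0.49 (edgeR adjusted p = 0.239), and without Cre 3 it was 0.13 (edgeR adjusted p = 0.724). Cre 3 was thus the highest Cre library for Loxl4 and Loxl2 and the lowest for Lox and Loxl1. It also had the lowest mesothelial mean of the Cre group, 4.06 log2 CPM, and the highest stellate lineage mean, 4.34 log2 CPM against 3.29 and 3.11 in Cre 1 and 2, and the part of these in its levels was not tested.

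**Figure D2:**
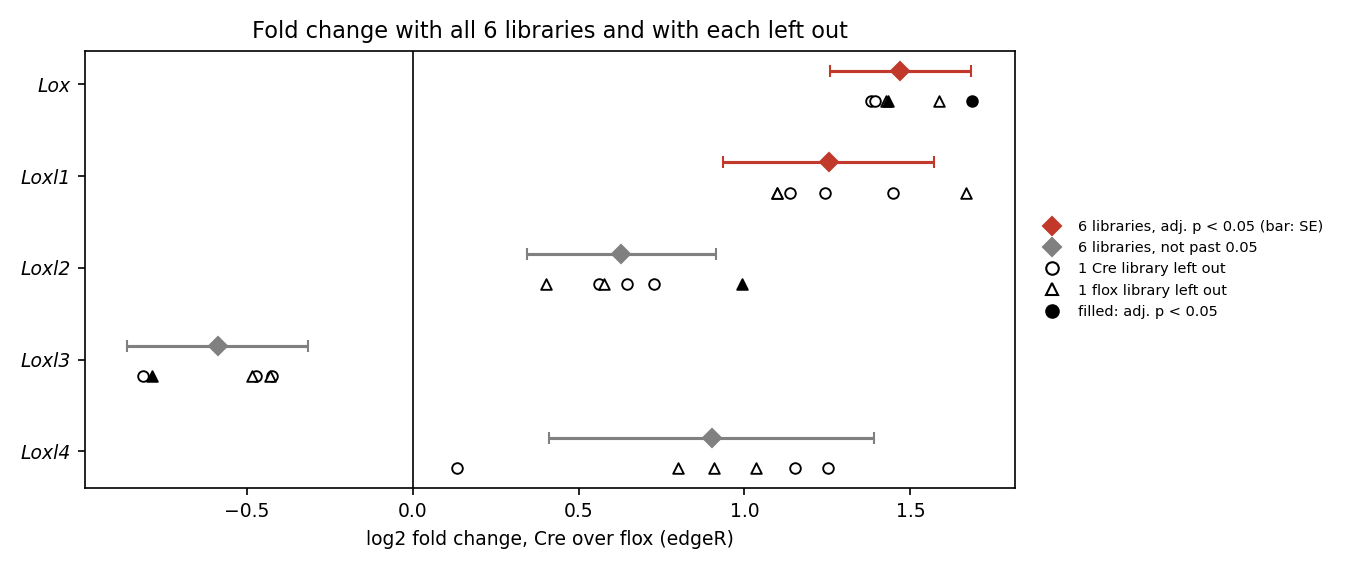
Log2 fold change, Cre over flox, from edgeR for each gene (diamonds, bars are standard errors) and below it the 6 values with 1 library left out (circles for a Cre library, triangles for a flox library, filled where the adjusted p was below 0.05). Lox stays between 1.38 and 1.69, Loxl2 reaches 0.99 without flox 3, and Loxl4 drops to 0.13 without Cre 3.

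The order of the family means was not the same in the groups on a scale that allows genes to be compared, the deposited FPKM (fragments scaled by gene length and library size). In Cre libraries Loxl2 averaged 17.1 ± 1.66 FPKM, Loxl1 15.6 ± 3.67, Lox 14.1 ± 3.698, Loxl3 5.74 ± 1.64 and Loxl4 4.32 ± 3.11 FPKM (SD, n = 3). The first 3 of these overlapped in range, as did Loxl3 and Loxl4, and the lowest Lox value (9.79 FPKM) lay above the highest Loxl3 value (7.63 FPKM). In flox libraries Loxl2 averaged 10.1 ± 4.69 FPKM, Loxl3 7.66 ± 1.70, Loxl1 5.82 ± 2.37, Lox 4.54 ± 0.55 and Loxl4 2.09 ± 0.39 FPKM. There every neighbour in the order overlapped in range except Lox and Loxl4. Loxl3 led the family in flox 1 and 2 and took the fourth or the fifth place in each Cre library.

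**Figure D3:**
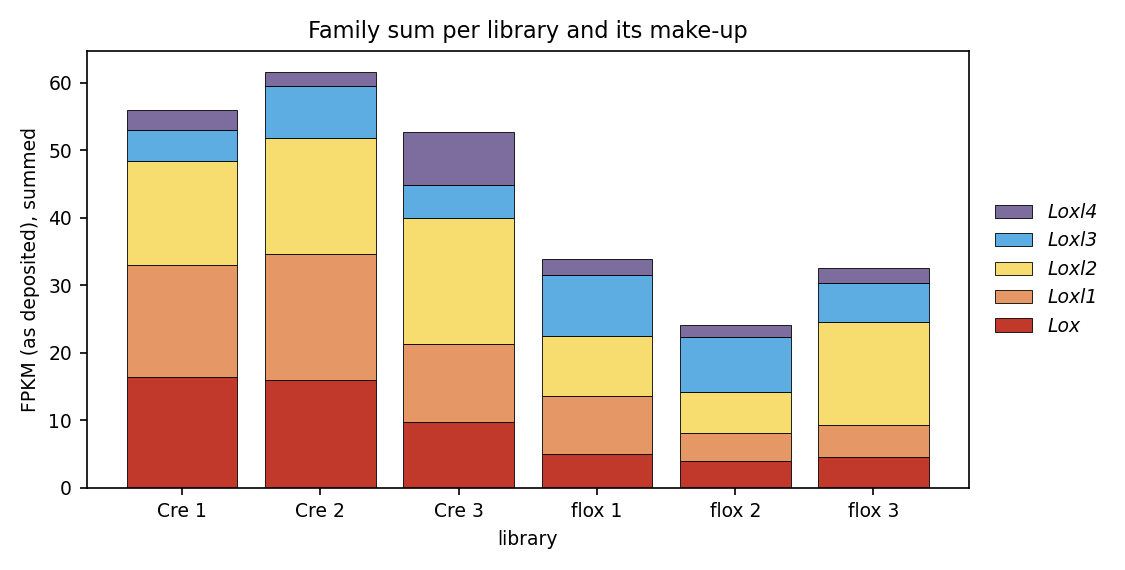
Summed FPKM of the 5 genes in each library (bar height) and the part of each gene (colours). The bars reach 52.8 to 61.7 FPKM in Cre libraries and 24.1 to 33.96 FPKM in flox libraries, and the Loxl3 segment takes a smaller part in the Cre bars.

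The family sum was 56.0, 61.7 and 52.8 FPKM in Cre 1, 2 and 3 and 33.96, 24.1 and 32.6 FPKM in flox 1, 2 and 3, so the groups did not overlap. FPKM carry no composition factor, and library totals placed fold changes 0.16 higher than TMM did on the log2 scale. Lox made up 29.3%, 25.9% and 18.6% of that sum in Cre 1, 2 and 3 and 14.96%, 16.5% and 14.0% in flox 1, 2 and 3. Loxl3 made up 8.36%, 12.4% and 9.28% in Cre 1, 2 and 3 and 26.5%, 34.1% and 17.7% in flox 1, 2 and 3. Each of these shares separated the groups, and the exact two-sided permutation test gave 0.10 for both, the smallest p that 3 libraries against 3 allow (0.25 adjusted over the 5 shares). Shares of the same sum depend on each other, so these are not separate results. The level of Loxl3 itself overlapped between the groups, with 7.63 FPKM in Cre 2 and 5.76 FPKM in flox 3. Loxl1 made up 27.2 ± 4.70% in Cre and 19.0 ± 5.44% in flox, an overlapping range (exact permutation p = 0.20). Loxl2 made up 30.3 ± 4.45% in Cre and 32.8 ± 12.1% in flox, and Loxl4 7.88 ± 6.16% in Cre and 6.92 ± 0.081% in flox (exact permutation p = 1.0 each). The ratio of Lox to Loxl3 FPKM, chosen after its values were seen, was 3.50, 2.10 and 1.9997 in Cre 1, 2 and 3 and 0.564, 0.485 and 0.791 in flox 1, 2 and 3, so Lox exceeded Loxl3 in every Cre library and in no flox library.

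Because the libraries hold several cell types, each level was also set against stellate lineage genes of the same library. The difference between Lox and the stellate lineage mean was 2.91, 3.07 and 1.16 log2 units in Cre 1, 2 and 3 and 0.80, 0.93 and 1.57 in flox 1, 2 and 3. Cre 3, with the highest stellate mean, thus lay below flox 3, and the groups overlapped. The Cre minus flox difference was 1.28 (exact two-sided permutation p = 0.20), and ran from 0.94 without Cre 2 to 1.89 without Cre 3. For Loxl1 it was 1.14, for Loxl2 0.54, for Loxl3 -0.74 and for Loxl4 0.51, all with overlapping groups (exact permutation p of 0.30 to 0.50). With 1 library left out these ran from 0.77 (without Cre 2) to 1.72 (without Cre 3) for Loxl1 and from 0.24 (without flox 2) to 1.12 (without flox 3) for Loxl2. They ran from -1.20 (without Cre 2) to -0.28 (without Cre 3) for Loxl3 and from 0.33 (without Cre 3) to 0.80 (without flox 3) for Loxl4. Relative to stellate lineage genes, then, no member was separated between the groups.

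Set against the fibrillar collagens Col1a1, Col1a2 and Col3a1, which these enzymes cross-link, Lox stood at -2.16, -2.97 and -3.43 log2 units in Cre 1, 2 and 3 and at -4.79, -3.96 and -3.09 in flox 1, 2 and 3. The mean difference was 1.09 with overlapping groups (exact permutation p = 0.20). Loxl3 stood at -4.20, -4.28 and -4.66 in Cre 1, 2 and 3 and at -4.20, -3.16 and -2.98 in flox 1, 2 and 3, where Cre 1 and flox 1 were nearly level. Its difference of -0.93 separated the groups by a narrow margin (exact permutation p = 0.10, 0.33 adjusted over the 5 genes). The collagens themselves varied widely, with Col1a1 at 490.2, 836 and 544 CPM in Cre 1, 2 and 3 and 797, 371 and 243 CPM in flox 1, 2 and 3.

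**Figure D4:**
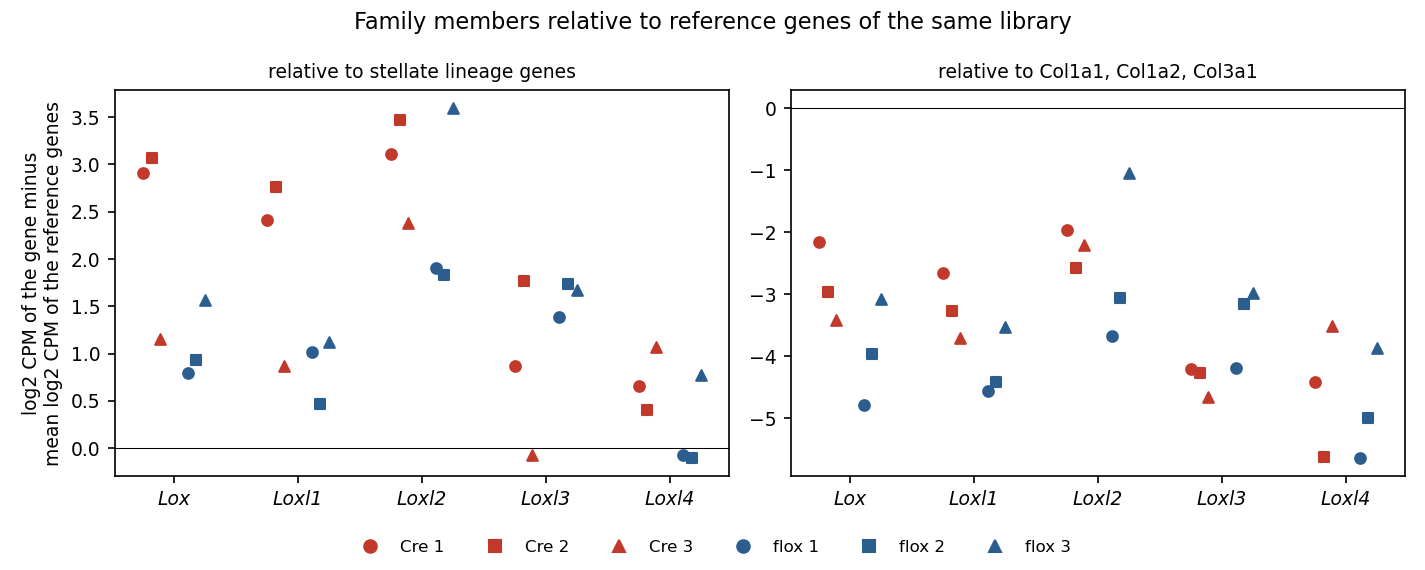
Log2 CPM of each family member minus the mean log2 CPM of the stellate lineage genes (left) or of Col1a1, Col1a2 and Col3a1 (right), in the 3 Cre (red) and 3 flox (blue) libraries, with a marker shape for each library number. On the left Cre 3 falls among the flox libraries for Lox and Loxl1, and on the right only Loxl3 is separated, with Cre 1 and flox 1 nearly level at -4.20.

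Lysyl oxidases are trimmed outside the cell and guided to their substrates by other matrix proteins. Of 12 tested genes of that list 4 rose and 1 fell, with a median log2 fold change of 0.87 and 8 genes with all Cre above all flox libraries. Over all tested genes 6.35% rose, 8.94% fell and 19.6% had all Cre libraries on top. The counts with all 6 libraries in the lists that follow stand beside the same shares. Bmp1, the proteinase that releases the Lox propeptide, had 134, 151 and 175.0 CPM in Cre 1, 2 and 3 and 101.3, 50.2 and 79.7 CPM in flox 1, 2 and 3 (0.99 ± 0.26, edgeR adjusted p = 0.0469). Adamts2, a procollagen proteinase that also cleaves Lox, rose by 0.91 ± 0.24 and fibronectin (Fn1), a matrix scaffold that binds Lox, by 1.14 ± 0.29. Efemp2, the fibulin that brings Lox to elastin, rose by 0.80 ± 0.20, and its exons overlap those of Mus81, while those of Fn1 overlap Apol7d. Pcolce2, an enhancer of procollagen trimming, fell, at 8.76, 4.996 and 6.36 CPM in Cre 1, 2 and 3 and 34.8, 52.9 and 12.5 CPM in flox 1, 2 and 3 (-2.32 ± 0.52). The flox libraries had the same order for Pcolce2 as for the macrophage markers, at 9.20, 9.66 and 8.06 log2 CPM in flox 1, 2 and 3, and the part of these markers was not tested. Without flox 3, an alternative added after the data were seen, 3 rose and 1 fell. Over the whole table that fit called 2447 of 15296 genes higher and 2882 lower, more than the main fit. These totals stand beside each list count without flox 3 that follows.

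Collagens and elastin are the substrates of these enzymes. Of 10 tested collagen and elastin genes 0 rose and 1 fell, with a median of 0.38. The one that fell was Col11a2, a minor fibrillar chain with 1.23 ± 0.181 CPM in Cre and 4.65 ± 2.07 CPM in flox (SD, n = 3, log2 fold change -1.91 ± 0.40). It had 4.31, 6.87 and 2.76 CPM in flox 1, 2 and 3, the order of the macrophage markers there, but was highest in Cre 3 among the Cre libraries, as these markers were not. The part of these markers was not tested. Col1a1 was at 0.41 ± 0.45, Col1a2 at 0.35 ± 0.50 and Col3a1 at -0.17 ± 0.61, with edgeR adjusted p of 0.55 to 0.870, and exons of Col3a1 overlap a predicted gene. Acta2, the smooth muscle actin of myofibroblasts, was at 0.99 ± 0.30 (edgeR adjusted p = 0.0696). Without flox 3, 2 substrates rose and 2 fell.

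**Figure D5:**
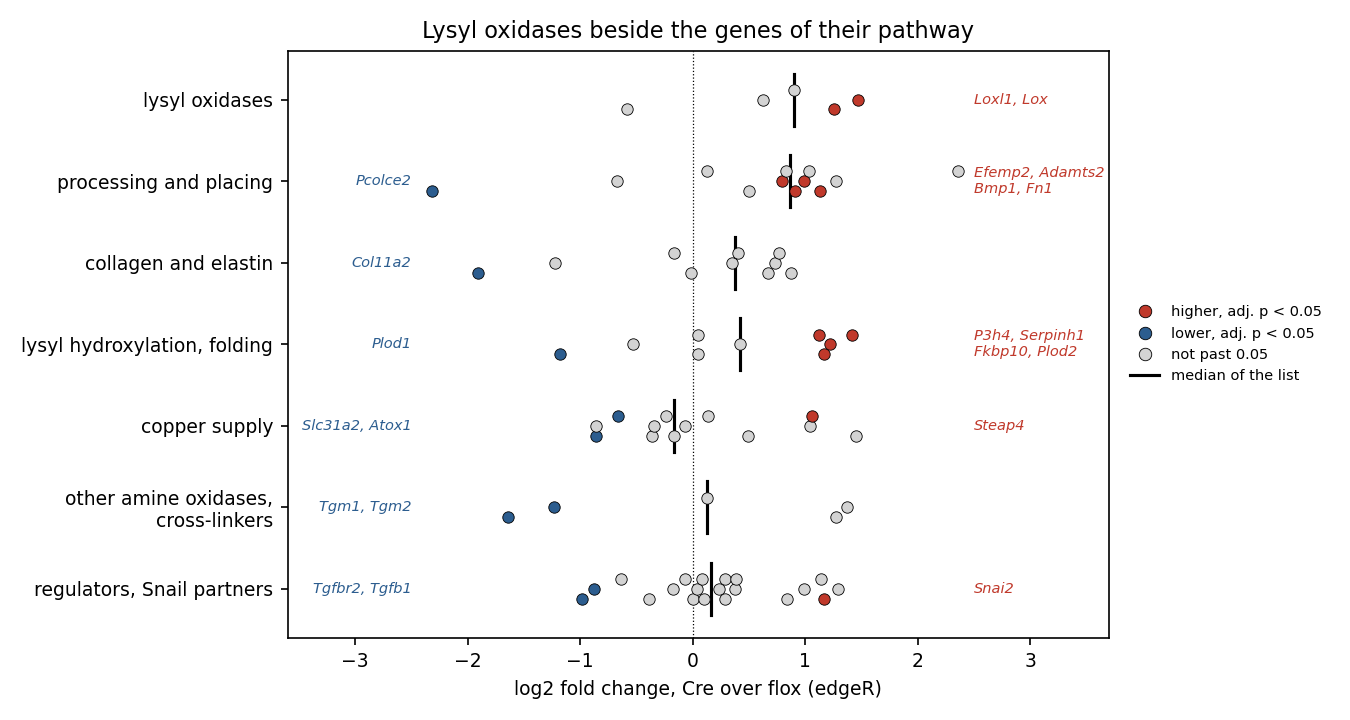
Log2 fold change, Cre over flox, of the lysyl oxidases and of every tested gene in 6 lists of their pathway (points, red or blue where the edgeR adjusted p was below 0.05, with those genes named at the side). Vertical bars are list medians, 0.90 for the lysyl oxidases, 0.87 for processing and placing, and -0.16 for copper supply.

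Which lysines a lysyl oxidase can use depends on their prior hydroxylation inside the cell. Of 9 tested genes for lysyl hydroxylation and collagen folding 4 rose and 1 fell, with a median of 0.42. Plod2, the hydroxylase of collagen telopeptide lysines, had 249, 232 and 135 CPM in Cre 1, 2 and 3 and 98.1, 60.0 and 72.0 CPM in flox 1, 2 and 3 (1.42 ± 0.28, edgeR adjusted p = 0.0275), with exons that overlap a predicted gene. Like Lox, it was lowest in Cre 3 among the Cre libraries and did not overlap between groups. Fkbp10, the isomerase that acts with Plod2, rose by 1.22 ± 0.20, the collagen chaperone Serpinh1 by 1.17 ± 0.21 and P3h4, a partner of lysyl hydroxylase in the endoplasmic reticulum, by 1.12 ± 0.22. Exons of Fkbp10 overlap those of Nt5c3b. Plod1, the hydroxylase of lysines in the collagen helix, went the other way, at 151, 161 and 195 CPM in Cre 1, 2 and 3 and 419.5, 480.4 and 248 CPM in flox 1, 2 and 3 (-1.18 ± 0.25, edgeR adjusted p = 0.0320). The flox libraries had the order of their macrophage markers, with flox 3 lowest. The Cre libraries did not, as Plod1 was lowest in Cre 1, where the macrophage mean was highest of that group. The part of these markers in the Plod1 difference was not tested. Without flox 3, 4 of this list rose and 2 fell.

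Copper must be loaded into lysyl oxidases in the secretory pathway. Of 13 tested copper supply genes 1 rose and 2 fell, near the shares over all genes (6.35% and 8.94%), with a median of -0.16. Steap4, a metalloreductase of iron and copper, had 81.8, 80.0 and 78.8 CPM in Cre 1, 2 and 3 and 44.4, 37.05 and 34.1 CPM in flox 1, 2 and 3 (1.06 ± 0.12). The copper transporter relative Slc31a2 fell by 0.86 on the log2 scale (SE 0.18) and the copper chaperone Atox1 fell by 0.66 (SE 0.16). Both were lowest in flox 3 among the flox libraries, as the macrophage markers were, and the part of these markers was not tested. Without flox 3, 2 rose and 4 fell.

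Of 5 tested genes for other amine oxidases and matrix cross-linkers 0 rose and 2 fell, with a median of 0.13. Those that fell were the transglutaminases, which cross-link proteins by another chemistry. Tgm2 had 799, 971 and 1071 CPM in Cre 1, 2 and 3 and 2498, 2487 and 1691 CPM in flox 1, 2 and 3 (-1.23 ± 0.21), with exons that overlap Rprd1b, and Tgm1, whose exons overlap a predicted gene, was at -1.64 ± 0.32. Tgm1 had 11.4, 6.30 and 10.3 CPM in Cre 1, 2 and 3 and 24.6, 22.3 and 40.8 CPM in flox 1, 2 and 3. It was highest in flox 3, which had the lowest macrophage marker mean of the flox group. Macrophage markers also fell in the Cre libraries, and the part of these markers in either difference was not tested. Without flox 3, the counts of this list were again 0 and 2.

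Of 20 regulators and Snail partners, among them the TGF-beta, hypoxia and mechanosensing factors known to drive lysyl oxidase genes, 1 rose and 2 fell, near the shares over all genes (6.35% and 8.94%), with a median of 0.17. Snai2, the Snail relative Slug, had 6.31, 5.91 and 7.19 CPM in Cre 1, 2 and 3 and 2.63, 2.41 and 3.58 CPM in flox 1, 2 and 3 (1.17 ± 0.25). The cytokine gene Tgfb1 fell by 0.88 on the log2 scale (SE 0.22) and its receptor gene Tgfbr2 by 0.98 (SE 0.25). Tgfb1 had 270.0, 291 and 203 CPM in flox 1, 2 and 3 and Tgfbr2 had 359, 403 and 230.0 CPM there, the order of the macrophage markers, which also fell. In Cre 1, 2 and 3 Tgfb1 had 117, 119 and 179 CPM and Tgfbr2 163, 204 and 137 CPM, not the order of these markers there. The part of these markers in either difference was not tested. Without flox 3, 8 of this list rose and 4 fell, where 2447 of 15296 genes over the whole table rose and 2882 fell. The 10 genes that rose and the 9 that fell in the 6 lists had edgeR adjusted p of 0.0234 to 0.0475, so these calls too ended wherever no gene passed. Some also ended where many genes passed. Without Cre 3, with 1369 genes called, 1 of the processing list rose and 0 fell, and 0 regulators rose and 1 fell. With limma-voom, with 1404 called, 2 of the processing list rose and 0 fell, and 1 regulator rose and 0 fell. The hydroxylation and folding list kept 4 higher in both.

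Each member was also compared with 11654 genes for the likeness of its profile, by Pearson correlation of log2 CPM over the 6 libraries, which share depth, groups and mixture of cells. The genes most like Lox were Brca1, a DNA repair factor (r = 0.998), the checkpoint kinase Chek1 (0.998), Palmd, a palmdelphin gene whose exons overlap a non-coding gene (0.997), and Clspn, a partner of Chek1 (0.997). Each of these 4 rose in Cre libraries by 1.81 to 1.995 on the log2 scale and was lowest in Cre 3 among them, as Lox was. The genes most like Loxl1 were Phf19, a partner of Polycomb complexes (0.995), Col12a1, a fibril-associated collagen (0.993), the vesicle tether Uso1 (0.993) and the ribosomal protein gene Rps19 (0.991), and of these Col12a1 rose (1.08 ± 0.28).

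For Loxl2 the closest genes were Utrn, the dystrophin relative utrophin (0.998), the phospholipase Plcg1 (0.997), the receptor tyrosine kinase Erbb2 (0.997) and Rcn1, a calcium-binding protein of the endoplasmic reticulum (0.996). All 4 had flox 3 inside or near the Cre range, as Loxl2 did, and none passed the test. For Loxl3 they were the histone gene H4c9 (0.992), which has near-identical copies and so is uncertain, the semaphorin and VEGF co-receptor Nrp1 (0.988), the MHC class II regulator Rfxap (0.986) and Gpr155 (0.980). For Loxl4 they were the kinesin light chain Klc1 (0.993), the cytolinker Plec (0.986), the cytokine Lif (0.985) and the guidance cue Ntn1 (0.984), all highest in Cre 3. Exons of Plcg1, Erbb2, Nrp1, Gpr155, Klc1 and Plec overlap other annotated genes. None of the 8 genes named for Loxl3 and Loxl4 passed the test. With 6 libraries and this many genes, such r values describe these libraries only.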

How the data were processed

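RNA from primary mouse hepatic stellate cells was sequenced in 6 libraries, 3 titled Cre and 3 titled flox, grouped by their titles. The authors deposited a table of raw counts per gene and a table of FPKM for the same 22966 genes. The deposited FPKM equalled count over library total and 1 length per gene, with a largest relative departure of 1.14e-08 over 11560 genes with over 50 counts in each library, so they carry no composition factor. Per the labels' protocols, RNA was purified on columns and libraries were made with a SMARTER mRNA kit. Per the submitters' processing notes, the builds GRCm38, mm10 and hg38 were named with no role. The sources used here do not give the aligner, counter, annotation, strand setting or read length.

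The test of the counts used edgeR 4.0.16 (R 4.3.3) with filterByExpr (minimum count 10, minimum total 15), which kept 14795 genes and removed 8171, TMM factors, and the quasi-likelihood test of Cre over flox in the 6 libraries, with Benjamini-Hochberg adjustment over all tested genes and a threshold of 0.05. A ± after a log2 fold change is its standard error, and a ± after a mean is the SD. For edgeR this standard error was derived from the fold change and the F statistic of its test. Single values from FPKM or log2 CPM differences were compared with an exact two-sided permutation test over libraries (scipy 1.17.1). Alternatives were RLE factors, library totals, DESeq2 1.42.0, limma 3.58.1 (voom, or trend on log2(FPKM + 1) and log2(FPKM + 0.1)), other filters, a replicate block and each library left out. The edgeR step was tested on simulated data. Gene positions, exons and sequences came from GENCODE M21 (GRCm38), and exon overlaps were counted there.

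The family members were taken by symbol. The members and the pathway and marker lists were chosen with earlier results of these data known. Named were the 5 members, the called genes of each pathway list (up to 6), the 3 markers of lowest p of each list (printed for macrophages, and elsewhere where called), Acta2, Col1a1, Col1a2 and Col3a1, and the 4 genes of highest correlation with each member among those with an average of at least 1 log2 CPM, leaving out predicted genes. Lrat, Gfap and Bche were named outside that rule, after their values were seen.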

Additional observations from a re-analysis of the deposited data

How the results depend on the processing

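Over 16 alternatives the log2 fold change of each member kept its sign. Lox ran from 1.38 to 1.69 and passed in 11, and Loxl1 from 1.10 to 1.67 and passed in 9. Loxl2 and Loxl3 passed in 1 each, without flox 3, and Loxl4 in 0. Genes called over the whole table were 1976 higher and 2358 lower with DESeq2, 578 higher and 826 lower with limma-voom, and 1415 higher with library totals. With 1 library left out, they ran from 0 to 2447 higher and from 0 to 2882 lower, and the members called from 0 to 3. The cause was not tested.

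Same-numbered libraries did not deviate together from their group means (correlations of -0.0328, -0.105 and -0.0556). With 3 libraries per group this cannot exclude that the numbers pair them, and the labels do not say. With the replicate block in edgeR, 0 genes rose, 0 fell and 0 members were called, with 4296 genes at an unadjusted p below 0.05. Lox was then at 1.44 (edgeR adjusted p = 0.0736) and Loxl1 at 1.30 (edgeR adjusted p = 0.0860).

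The Cre minus flox difference in the share of the family sum turned to 4.49 percentage points for Loxl2 without flox 3 and to -2.56 for Loxl4 without Cre 3. With each library left out these differences ran from -6.27 to 4.49 for Loxl2 and from -2.56 to 3.15 for Loxl4. The lowest count of a member in a library was 357.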
